A study of Mus musculus with 6 samples.

Results

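Acyl-CoA thioesterases cut fatty acyl-CoA into free fatty acid and CoA. The 9 genes described here are Acot1, Acot2, Acot3, Acot4, Acot7, Acot8, Acot9, Acot11 and Acot13, out of 57010 gene identifiers in the deposited table, and they were taken by name and grouped by the compartment in which the mouse enzyme is known to work. RNA of heart ventricles from mice at postnatal day 14 was sequenced in 3 control and 3 Cend1-KO libraries. The labels call the control libraries CTL and their table columns WT, and give neither strain, sex nor the cells in which Cend1 was deleted, nor whether each library came from its own animal, so any spread below may be partly technical. Replicates carry the numbers 1, 3 and 4 in both groups, and sets of 3 values below follow that order. Values are the authors' TPM (a transcript level corrected for length that sums to 1000000 in each library), so levels of different genes can be set side by side, while depth is unknown.

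Hydrolysis by these enzymes sets how much acyl-CoA and free CoA a compartment holds, and so opposes the acyl-CoA synthetases that load fatty acids for burning. In heart muscle, which runs largely on fatty acids after birth, the mitochondrial enzymes act on the same acyl-CoA pool as beta-oxidation, and the peroxisomal ones end the shortening of very long chains. The family has 2 unrelated folds: Acot1 to Acot4 are alpha/beta hydrolases encoded side by side, and Acot7, Acot8, Acot9, Acot11 and Acot13 are hotdog-fold enzymes scattered over the genome. Acot2 heads the set because it had already been found lower in Cend1-KO in these same libraries, so its difference and those of the other members are given as descriptions, with no p.

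Acot2 (ENSMUSG00000021226, mm10 chromosome 12, 83987861 to 83993873, plus strand) and Acot1 (ENSMUSG00000072949, chromosome 12, 84009490 to 84018371, plus strand) are neighbours and close copies. Over 1239 aligned coding bases they were identical at 95.2%, against 73.7% to 85.4% for the other pairs among Acot1 to Acot6. Differences also lie within the aligned part, where 1180 of the 1239 bases were identical. The starts of both coding sequences are shown because the Acot2 reading frame opens with bases that have no counterpart in Acot1. In capitals are these 123 bases (41 codons), the stretch that carries the mitochondrial import signal known for this enzyme. In lower case are the first aligned bases (GENCODE M21, mm10, plus strand).
Acot2 coding start: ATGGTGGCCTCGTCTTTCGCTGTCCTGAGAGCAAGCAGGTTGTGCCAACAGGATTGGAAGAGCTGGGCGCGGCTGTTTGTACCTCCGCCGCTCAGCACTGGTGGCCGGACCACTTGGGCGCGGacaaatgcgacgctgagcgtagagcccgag
Acot1 coding start: atggaggcgacgctgaaccttgagccctcg
The longest run of bases that both coding sequences share is 273 bases, positions 1010 to 1282 of the Acot2 reading frame, and is shown because a read that falls within it cannot be assigned to either gene.
Run shared by Acot1 and Acot2: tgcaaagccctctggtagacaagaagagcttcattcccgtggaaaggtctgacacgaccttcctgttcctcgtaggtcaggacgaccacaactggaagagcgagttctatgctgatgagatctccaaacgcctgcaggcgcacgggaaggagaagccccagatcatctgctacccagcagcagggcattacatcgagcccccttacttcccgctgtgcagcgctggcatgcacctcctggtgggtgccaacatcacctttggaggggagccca
Of all windows of 100 bases in the coding transcripts of Acot2, 17.1% occurred in transcripts of another gene, all of them in Acot1; for Acot1 the share was 21.5%. How the authors' counting treated such reads is not given in the sources used here, so the split between both genes is less certain than their sum. Acot7 and Acot13 shared no such window with any other gene, and Acot9 shared 0.968%.

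Some other members overlap neighbouring genes. Acot3 and Acot4 also resemble genes of their cluster. Of their 100-base windows, 15.9% and 8.59% occurred in transcripts of another gene, overlapping genes included. For Acot3, 3.0% of the windows occurred in Acot1. Acot8 (chromosome 2, 164792765 to 164804882, minus strand) shares 246 exonic bases with Snx21 on the opposite strand, which was at 10.7 to 21.6 TPM. Acot11 (chromosome 4, 106744555 to 106804998, minus strand) shares 1263 exonic bases with Fam151a, which did not exceed 0.114 TPM. Acot3 (chromosome 12, 84052144 to 84060402) and Acot4 (84038379 to 84048601) overlap the read-through model Gm49366 and the antisense RNA 4732463B04Rik, which were at most 0.335 and 1.03 TPM. The antisense RNA was at 0.683 to 1.03 TPM in controls and 0.263 to 0.672 in Cend1-KO, without overlap as deposited but with overlap after a median-of-ratios scaling of the libraries. The library kit is not stated to mark strand, so reads over these stretches cannot be told apart. Acot7 (chromosome 4, 152178134 to 152271855, plus strand), Acot9 (chromosome X, 155262443 to 155297654, plus strand) and Acot13 (chromosome 13, 24817948 to 24831540, minus strand) share no exonic base with another annotated gene.

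The label of the knockout was checked first: the control libraries held 1.44, 1.99 and 1.54 TPM of Cend1, and each of the 3 knockout libraries lists it at 0. All 9 cardiomyocyte markers were present, and their summed level was 48270 to 53100 TPM in controls and 33090, 26500 and 40020 TPM in the knockout libraries. Mitochondrial-genome genes and their nuclear copies took 26.9% to 29.4% of TPM in controls and 25.9%, 52.1% and 33.2% in the same Cend1-KO libraries, leaving less of the fixed total for other genes in replicate 3. A median-of-ratios scaling, which divides each library by its typical ratio to the others, was therefore run beside the deposited values; it moved the median difference of all genes from -0.11 to 0.0020 on the log2 scale. The 5 lung epithelium markers summed to 476 and 797 TPM in Cend1-KO replicates 1 and 4 and to at most 0.317 TPM in the other 4 libraries. Summed erythroid markers were 1390 to 4474 TPM in controls and 10630 to 24500 in Cend1-KO, and summed fibroblast markers 1121 to 2168 and 2579 to 3658. Summed endothelial markers were 274.5 to 335.6 TPM in controls and 287.2 to 877.2 in Cend1-KO. In such bulk RNA, fewer cells of a type and less RNA per cell cannot be told apart.

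Acot13, a thioesterase of mitochondria that takes acyl-CoA of many lengths, was by far the most abundant member. It was at 645.5, 699.5 and 576.0 TPM in the controls and at 609.9, 687.0 and 655.3 TPM in the knockout libraries. The Cend1-KO libraries lay within the control range as deposited; after scaling they stood at 492.3, 964.1 and 669.7 against 512.5 to 711.0, overlapping but with 2 of 3 outside that range. Acot13 ranked 229 among the 13542 genes tested by its control mean and made up 76.4% ± 1.96 of the TPM of all 9 genes in controls (SD, n = 3). Its fitted difference, taken as Cend1-KO minus control after log2(TPM + 1), was 0.03 (SE 0.20), and 0.17 (SE 0.26) after median-of-ratios scaling.

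In control ventricles the levels fell from Acot13 through Acot2 (69.5 to 79.5 TPM), Acot7 (38.6 to 40.5), Acot9 (31.1 to 36.4), Acot1 (32.7 to 37.2), Acot8 (9.99 to 11.2), Acot11 (2.20 to 2.50) and Acot3 (0.984 to 1.75) to Acot4 (0.216 to 0.220). Only Acot9 and Acot1, neighbours in this order, had ranges that overlapped. In Cend1-KO ventricles the order of means changed below Acot13: Acot9 (27.8 to 40.2 TPM), Acot2 (28.7 to 33.4) and Acot7 (20.4 to 39.4) overlapped, and Acot1 followed at 13.4 to 18.4 TPM. The places of Acot8, Acot11, Acot3 and Acot4 were as in controls, with no overlap between them.

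**Figure D1:**
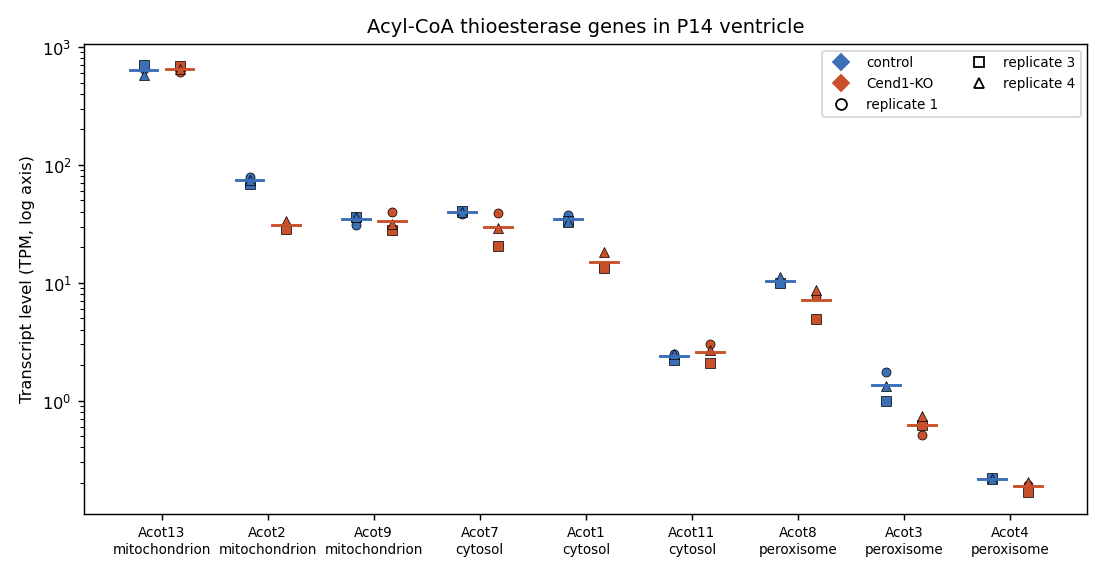
Transcript level (TPM, log axis) of the 9 thioesterase genes by compartment. Points are single libraries, marked by replicate, and bars are group means (3 control and 3 Cend1-KO libraries). Acot2 and Acot1 lie lower in every Cend1-KO library than in every control, while the means of Acot13 are 640.3 and 650.7 TPM as deposited.

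Among the mitochondrial members, Acot2, the long-chain thioesterase of the matrix, was at 79.5, 69.5 and 74.6 TPM in the controls and at 30.5, 28.7 and 33.4 TPM in the knockout libraries. The groups did not overlap, and each Cend1-KO library stood at 40.9%, 38.5% and 44.7% of the control mean. The spread within each group was small, at 74.5 ± 5.02 and 30.8 ± 2.35 TPM (SD, n = 3 each). The fitted log2 difference was -1.25 (SE 0.22), and -1.11 (SE 0.18) after median-of-ratios scaling. In Cend1-KO replicate 3, where the summed lung markers were at 0.317 TPM, Acot2 was at 28.7 TPM as deposited. After scaling, the knockout libraries stood at 24.6, 40.3 and 34.1 and the controls at 66.4 to 76.0, so replicate 3 was the highest knockout library on that scale and still below every control; the part of lung RNA in replicates 1 and 4 was not tested. Acot9, a mitochondrial enzyme of the hotdog fold, was at 31.1, 36.4 and 36.0 TPM in the controls and at 40.2, 27.8 and 31.4 TPM in the knockout libraries, so the groups overlapped. Its log2 difference of -0.07 (SE 0.24) became 0.07 (SE 0.15) after median-of-ratios scaling. Acot9 is X-linked. Xist, the transcript of the inactive X chromosome, was at 16.4 TPM in control replicate 4, at 7.37 TPM in Cend1-KO replicate 1 and at most 0.0555 TPM elsewhere. Cend1-KO replicate 1 had the highest Acot9 value as deposited. After scaling Cend1-KO replicate 3 had it, at 39.1 against 32.4 in replicate 1. The part of Xist in the Acot9 values was not tested.

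Without Acot13, the mitochondrial sum of Acot2 and Acot9 was 109.0 ± 2.75 TPM in controls against 64.0 ± 7.08 in the knockout (SD, n = 3 each). With it, the sum was 749.4 ± 59.7 and 714.7 ± 31.9 TPM and the groups overlapped. The ratio of Acot2 to Acot9, which no scaling of a library can change, was 2.56, 1.91 and 2.07 in the controls and 0.759, 1.03 and 1.06 in the knockout libraries. Every control held far more Acot2 than Acot9 transcript, the knockout libraries held close to equal or lower amounts, and the groups did not overlap. Acot2 was chosen for being lower and Acot9 differed little, so this ratio and the sum of Acot2 and Acot9 are lower by that choice. Both are descriptions only.

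In the cytosol, Acot1, a long-chain thioesterase known as a target of the fatty acid receptor PPAR alpha, was at 37.2, 33.4 and 32.7 TPM in the controls. The knockout libraries held 13.4, 13.4 and 18.4 TPM. The groups did not overlap, and the log2 difference was -1.15 (SE 0.24), or -1.02 (SE 0.21) after scaling. Acot7, an enzyme best known from brain with a preference for arachidonoyl-CoA, was at 38.6, 40.5 and 39.5 TPM in the controls and at 39.4, 20.4 and 29.2 in the knockout libraries. Controls were tight, while the Cend1-KO libraries spread from the control level to the lowest value in replicate 3, the library richest in mitochondrial-genome transcripts. The log2 difference of Acot7 was -0.45 (SE 0.26), and -0.31 (SE 0.13) after scaling, when the groups no longer overlapped. Acot11, named for its induction in brown fat and carrying a lipid-binding START domain, was at 2.20 to 2.50 TPM in controls and at 2.09 to 3.03 in Cend1-KO. Its groups overlapped, with a log2 difference of 0.08 (SE 0.21). The cytosolic sum was 76.3 ± 1.87 TPM in controls against 47.4 ± 10.3 in the knockout (SD, n = 3 each), without overlap.

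The peroxisomal members were the least abundant. Acot8, a peroxisomal enzyme of broad chain length, was at 9.99, 10.04 and 11.2 TPM in the controls and at 7.71, 4.93 and 8.66 in the knockout libraries, with a log2 difference of -0.52 (SE 0.26), and -0.40 (SE 0.15) after scaling. Its groups did not overlap on either scale. Acot3, a peroxisomal long-chain thioesterase, was at 1.75, 0.984 and 1.32 TPM in the controls and at 0.514, 0.619 and 0.734 in the knockout libraries. Acot4, a peroxisomal enzyme that acts on succinyl-CoA, was the lowest member, under 1 TPM in all 6 libraries. The groups of Acot3 did not overlap on either scale, and those of Acot4 (0.216 to 0.220 and 0.166 to 0.202 TPM) did not as deposited but did after scaling. The peroxisomal sum was 11.97 ± 0.725 TPM in controls against 7.91 ± 1.99 in the knockout, and the sum of all 9 genes 837.7 ± 59.9 against 770.0 ± 21.9, with overlap only in the latter (SD, n = 3 each). Acot3 and Acot4 did not reach 1 TPM in 3 libraries, the level set for testing, so they have levels but no fitted difference.

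Of the 9 members, 7 passed the filter. Limma with Benjamini-Hochberg adjustment over all tested genes placed Acot1 and Acot2 under 0.05, both lower, and none higher; the same test placed 0.908% of all tested genes lower and 0.790% higher. Because this contrast chose the set, nothing is read from that count. After median-of-ratios scaling the count was again 2, where 4.14% of all genes were called lower and 6.17% higher. The groups of 3 tested members did not overlap, all lower (Acot1, Acot2 and Acot8), as for 18.6% of all tested genes lower and 5.67% higher. After scaling this held for 4 lower (Acot7 added) and for Acot11 higher, against 17.1% and 17.9% of all. The call of Acot2 was lost without control replicate 1 (log2 difference -1.20) and without control replicate 3 (-1.30), and that of Acot1 without control replicates 1, 3 or 4 or Cend1-KO replicate 4 (-1.10, -1.17, -1.19 and -1.29). Of the members the test did not call, Acot8 and Acot7 were nearest to Acot1, at -0.52 and -0.45.

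**Figure D2:**
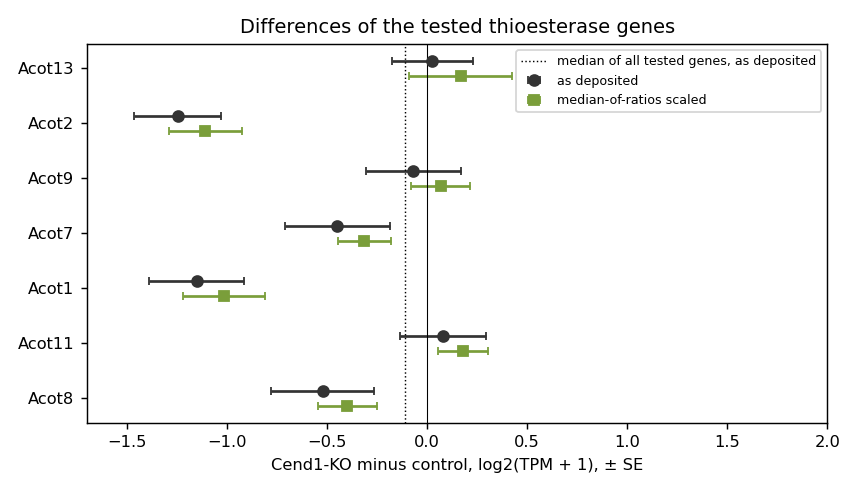
Fitted difference of the 7 tested members, Cend1-KO minus control, log2(TPM + 1), with its SE (3 libraries per group). Circles are deposited values, squares are median-of-ratios scaled, and the dotted line is the median of all tested genes at -0.11. Acot2 and Acot1 lie below -1 on both scales, and Acot9 moves from -0.07 to 0.07.

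Acot1 and Acot2 kept their proportion. The ratio of Acot2 to Acot1 was 2.14, 2.08 and 2.28 in the controls and 2.27, 2.14 and 1.81 in the knockout libraries. These ranges overlapped, while their sum went from 109.0 ± 7.10 to 45.9 ± 5.13 TPM (SD, n = 3 each). Since both genes share 17.1% to 21.5% of their 100-base windows with other genes, their reads are not fully separable; the part of shared reads in this ratio was not tested.

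The 9 cardiomyocyte markers also had differences below 0, with a median of -0.54, or -0.41 after median-of-ratios scaling. Limma called 0 of them on either scale. As deposited 7 were lower without overlap, where 18.6% of all tested genes were. After scaling 0 were, against 17.1% of all. Of 8 endothelial, 7 fibroblast and 6 erythroid markers tested, limma called 0, 1 and 3 higher as deposited. After scaling it called 4, 4 and 5 higher. Over all tested genes 0.790% were called higher as deposited and 6.17% after scaling. Ratios of Acot2 to single genes of heart muscle and mitochondria within each library are given as descriptions only: Acot2 was chosen for being lower, so its ratio to any gene that differed less is lower by that choice. Relative to Tnni3, the cardiac troponin I, the Acot2 ratio in Cend1-KO was 58.2% of the control mean, and relative to Myh6, the adult myosin heavy chain, 68.3%. Against Cs, the citrate synthase that opens the Krebs cycle, the ratio stood at 61.5% of the control mean. Against Acadm, the medium-chain acyl-CoA dehydrogenase, it stood at 56.8%, and against Cpt1b, the muscle carnitine palmitoyltransferase that admits long chains to the mitochondrion, at 76.8%. In each of these 5 ratios every Cend1-KO library lay below every control. Pdk4 and Ucp3, PPAR targets in muscle, gave 47.5% and 58.4%, again without overlap. The part of cell composition in the Acot2 and Acot1 levels was not tested.

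**Figure D3:**
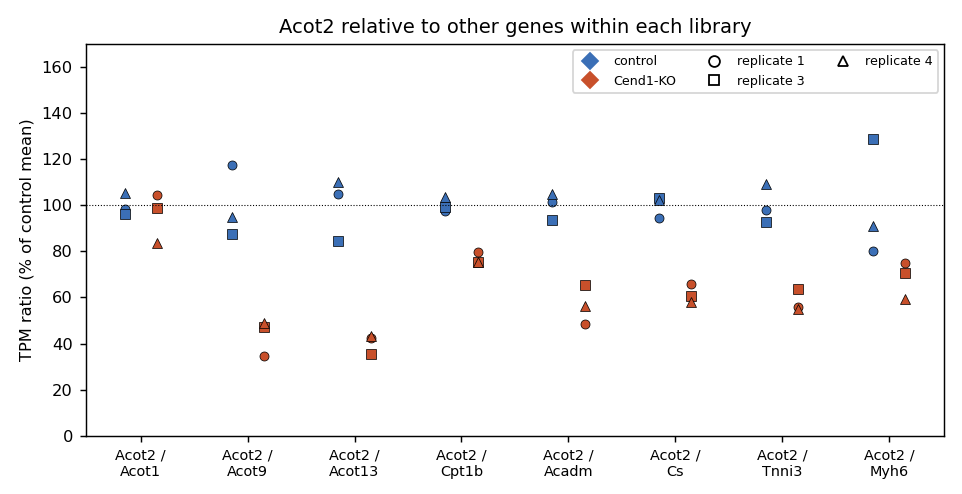
Ratio of Acot2 TPM to that of another gene in the same library, as a percentage of the control mean of that ratio; points are single libraries. The ratio to Acot1 overlaps between groups, and the ratios to Acot9, Acot13, Cpt1b, Acadm, Cs, Tnni3 and Myh6 do not. Acot2 was chosen for being lower, so its ratio to any gene that differed less is lower by that choice.

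Among 5961 other tested genes averaging 10 TPM or more, the profile nearest to that of Acot2 over the 6 libraries was that of Trim55, a muscle ubiquitin ligase of the sarcomere, with a root mean square distance of 0.086 on the log2 scale. Rbm24, a muscle splicing factor, followed at 0.098, then Acot1 at 0.109, Hspb3, a small heat shock protein of muscle, at 0.125 and Cacnb2, a calcium channel subunit, at 0.126. Trim55 was at 45.3 to 49.6 TPM in controls and 19.3 to 23.3 in Cend1-KO, and Hspb3 at 26.1 to 28.0 and 8.31 to 12.3. Because Acot2 was chosen for being lower in these libraries, profiles near its own are lower by that choice. They are given as descriptions only. Acot8 stood at 0.403 from Acot2, Acot7 at 0.474, and Acot9, Acot13 and Acot11 at 0.620 to 0.670. For Acot13 the nearest profile was that of Cript, at 0.053, followed by Tecrl at 0.061, both with overlapping groups. Acot11 and Acot9 were at 0.201 and 0.234 from Acot13.

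Within the chromosome 12 cluster, Acot3 stood at 46.1% of its control mean, beside 41.4% for Acot2 and 43.8% for Acot1, and Acot4 at 85.7%. The part of reads shared with Acot1 in the Acot3 level was not tested. Acot6, which follows Acot3 and Acot5 in the row, was at 0.878 to 1.82 TPM in controls and 0.845 to 1.27 in Cend1-KO (log2 difference -0.18, SE 0.20; limma adjusted p = 0.724). Acot5 did not exceed 0.202 TPM. No test compared Acot6 with Acot1 or Acot2. The flanking genes had overlapping groups as deposited, although those of Numb did not overlap after median-of-ratios scaling (log2 difference 0.45; adjusted p = 0.0936): Numb upstream of Acot2 was at 6.90 to 9.60 and 7.43 to 17.2 TPM (adjusted p = 0.630), Riox1 at 1.54 to 2.72 and 1.15 to 3.84 (adjusted p = 0.966), and Dnal1 beyond Acot6 at 2.77 to 3.12 and 1.91 to 3.65 (adjusted p = 0.847). Elmsan1 had an adjusted p of 0.994.

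**Figure D4:**
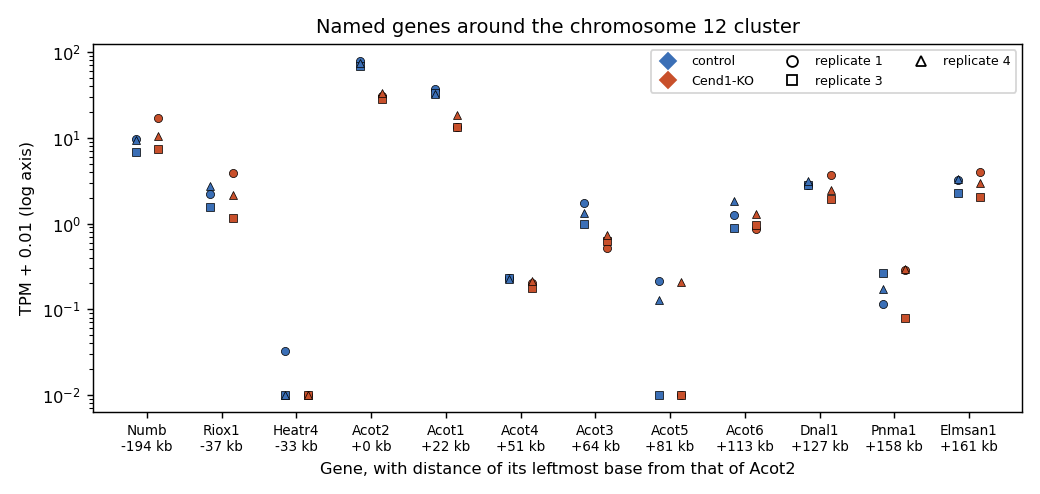
Levels (TPM + 0.01, log axis) of named genes in and around the thioesterase cluster on chromosome 12, in genomic order, with the distance of each gene's leftmost base from that of Acot2. Points are single libraries; genes listed at 0 sit at 0.01. Among the tested genes shown, the groups of Acot2 and Acot1 do not overlap as deposited and those of Numb, Riox1, Acot6, Dnal1 and Elmsan1 do.

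The starts of Acot2 and Acot1 are shown because these neighbours were lower together. Both windows run from 250 bases before to 50 after the start (RefSeq, GRCm38.p6, plus strand), at chr12:83987611-83987910 for Acot2 and chr12:84009252-84009551 for Acot1. Capitals mark CCAAT on either strand.
Acot2 promoter: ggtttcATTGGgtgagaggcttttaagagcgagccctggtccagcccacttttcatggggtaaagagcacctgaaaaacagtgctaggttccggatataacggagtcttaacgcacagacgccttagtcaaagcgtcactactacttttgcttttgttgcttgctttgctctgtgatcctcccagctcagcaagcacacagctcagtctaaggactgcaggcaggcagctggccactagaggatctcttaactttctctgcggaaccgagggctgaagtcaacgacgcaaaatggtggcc
Acot1 promoter: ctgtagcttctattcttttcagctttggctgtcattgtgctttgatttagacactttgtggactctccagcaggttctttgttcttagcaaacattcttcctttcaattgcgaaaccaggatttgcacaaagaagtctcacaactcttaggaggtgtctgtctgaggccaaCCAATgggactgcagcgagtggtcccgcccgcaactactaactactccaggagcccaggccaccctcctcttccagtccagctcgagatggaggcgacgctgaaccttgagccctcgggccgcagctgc
A CCAAT box (letters CCAAT) lay at -244 in Acot2 and at -79 in Acot1, and 37.4% of all 32851 promoter windows hold this motif. Windows were found for 8 of the 9 members. Neither the direct repeat bound by PPAR with RXR (AGGTCA, any 1 base, AGGTCA), which 0.0396% of windows hold, nor the extended site of estrogen-related receptors (TCAAGGTCA), which 0.423% hold, was in a window of any member. The receptor core AGGTCA, which both longer motifs contain, was in the windows of Acot3 and Acot4 and in 16.3% of all windows. The box TATAAA was in those of Acot4 and Acot9 and in 13.6% of all, and a MEF2 motif (CTA, any 4 bases, TAG) in none of the members' and in 3.69% of all. These letters describe the windows and say nothing of which factors bind.

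Other enzymes that cut thioesters were present at moderate levels. Of 10 in the table, 4 passed the filter: Ppt1 and Ppt2, lysosomal enzymes that remove fatty acids from proteins or their fragments, Them4, a mitochondrial thioesterase, and Acot6. Ppt1 was at 22.0 to 24.5 TPM in controls and 15.9 to 24.1 in Cend1-KO, Ppt2 at 15.2 to 19.3 and 9.28 to 18.8, and Them4 at 13.6 to 15.8 and 11.3 to 14.1. Limma called 0 of the 4 in either direction, and 0 had an unadjusted p under 0.05. Acot5, Acot10, Acot12 and Baat did not exceed 0.213 TPM, and Them5 and Olah were listed at 0 in every library.

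Mitochondrial beta-oxidation, which draws on the acyl-CoA that Acot2 hydrolyses, had lower values throughout without a call. All 20 genes of the carnitine shuttle and the oxidation spiral were tested, and all 20 differences were below 0 (19 with mitochondrial and hemoglobin genes removed), with a median of -0.50 where all tested genes had -0.11, or -0.36 where all had 0.0020 after median-of-ratios scaling. Limma called 0 of them, while 12 were lower at an unadjusted p under 0.05; over all tested genes 10.4% were lower at that p. Groups did not overlap for 19, all lower, where 18.6% of all tested genes were lower without overlap; after median-of-ratios scaling this was 5 of the 20 (Cpt1b, Slc25a20, Crat, Acadvl and Acadm) against 17.1%. Cpt1b was at 194.1, 166.5 and 170.9 TPM in the controls and at 90.9, 90.5 and 104.9 in the knockout libraries (log2 difference -0.89, SE 0.21; limma adjusted p = 0.0521). The libraries of each group lay close together and far from the other group. Hadha, a subunit of the trifunctional enzyme, was at 431.8 to 511.9 and 265.8 to 289.1 TPM (adjusted p = 0.09995), Slc25a20, the carnitine carrier, at 189.6 to 215.5 and 101.6 to 136.7 (adjusted p = 0.138), and Crat, the carnitine acetyltransferase, at 139.2 to 187.7 and 87.1 to 107.4 (adjusted p = 0.156). Without Cend1-KO replicate 3, 6 of the 20 were called lower where 2.32% of all tested genes were; with median-of-ratios scaling as well, 2 of the 20 were, against 4.17%. The list also moved with a reference list of 16 mitochondrial housekeeping genes, whose median was -0.43 with 0 calls and 6 genes at an unadjusted p under 0.05, and with the cardiomyocyte markers, whose median was -0.54; their part in these values was not tested.

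Acyl-CoA synthetases load the substrate of the thioesterases. Of 12 tested synthetases and fatty acid transporters limma called 0, with 2 lower at an unadjusted p under 0.05, and the median was -0.28. Acsl1, the main long-chain synthetase of heart, was at 166.5 to 218.7 TPM in controls and 101.7 to 121.6 in Cend1-KO (log2 difference -0.80, SE 0.22; adjusted p = 0.0918). Without Cend1-KO replicate 3 it was called, at -0.88. Acss2 and Slc27a1 had adjusted p = 0.306 and 0.328. Cd36, which takes up fatty acids, was at 393.3 to 461.0 and 427.2 to 782.9 TPM (adjusted p = 0.398).

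Of 16 tested genes of peroxisomal oxidation and its CoA diphosphatases limma called 0, and 0 had an unadjusted p under 0.05 in the lower direction; the median was -0.30. Abcd2, a peroxisomal transporter of very long acyl-CoA, was at 1.53 to 1.55 TPM in controls and 2.08 to 2.81 in Cend1-KO (adjusted p = 0.351, and 0.0428 after scaling). Decr2, Abcd3 and Hsd17b4 had log2 differences of -0.51, -0.43 and -0.44, with adjusted p = 0.345, 0.367 and 0.373.

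The CoA that thioesterases release is made by a short pathway, in which 11 genes were tested. Limma called 0, with 2 lower at an unadjusted p under 0.05, and the median was -0.40. These were Ppcs, the phosphopantothenoylcysteine synthetase, at 14.4 to 16.8 TPM in controls and 6.58 to 11.8 in Cend1-KO, and Dcakd, at 31.8 to 38.5 and 15.3 to 25.5. Their adjusted p of 0.192 and 0.201 became 0.0203 and 0.0303 after median-of-ratios scaling. Slc25a42, the mitochondrial CoA carrier, had adjusted p = 0.426, and Pank2 0.468.

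Among 9 acyl-CoA and fatty acid binding proteins limma called 0, with 3 lower and 1 higher at an unadjusted p under 0.05. Fabp3, the heart fatty acid binding protein, was at 9269 to 10400 TPM in controls and at 6703, 3604 and 6352 in the knockout libraries (adjusted p = 0.120). Dbi, the acyl-CoA binding protein, was at 552.6 to 719.8 and 214.2 to 469.6 TPM (adjusted p = 0.136), and Acbd6 had a log2 difference of -0.83 (adjusted p = 0.126, and 0.0269 after scaling). Fabp4, the binding protein of fat and capillary endothelium, was at 1236 to 1517 TPM in controls and 1933 to 4012 in Cend1-KO (log2 difference 0.99, SE 0.26; adjusted p = 0.0776, and 0.00955 after scaling), without overlap. White adipocyte markers moved with it: the 6 other than Fabp4 summed to 0.0166 to 2.29 TPM in controls and 12.7 to 21.1 in Cend1-KO. Limma called 3 of them higher, Adipoq (at most 1.27 and at least 4.37 TPM; adjusted p = 0.00226), Retn (at most 0.430 and at least 1.55; adjusted p = 0.00398) and Cfd (at most 0.106 and at least 5.10; adjusted p = 0.000131). The part of fat cells in the Fabp4 values was not tested.

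Of 12 tested regulators of the PPAR axis, 10 had differences below 0, with a median of -0.36, and 3 were lower at an unadjusted limma p under 0.05. Limma called 1 lower, the coactivator Ppargc1a, and 0 higher. Ppargc1a was at 39.3, 24.7 and 25.7 TPM in the controls and at 11.7, 12.4 and 10.2 in the knockout libraries (log2 difference -1.28, SE 0.25; adjusted p = 0.0219). Controls varied more than the Cend1-KO libraries, and the groups did not overlap. Leaving out control replicate 1 or 3, or Cend1-KO replicate 4, ended the call. Ppara, the receptor itself, was at 4.69 to 8.54 and 2.54 to 3.37 TPM (adjusted p = 0.117), Ppargc1b at 3.29 to 5.51 and 1.97 to 2.89 (adjusted p = 0.218), and Pparg at 3.79 to 5.11 and 4.49 to 14.1 (adjusted p = 0.382). Of 18 tested PPAR target genes limma called 0, with 4 lower at an unadjusted p under 0.05, and 13 differences were below 0, with a median of -0.25. Over all tested genes 8445 of 13542 differences were below 0, with a median of -0.11, and 10.4% were lower at that p. After median-of-ratios scaling 11 of the 18 targets and 10 of the 12 regulators were below 0. With mitochondrial and hemoglobin genes removed these were 9 and 8. Angptl4, a secreted lipase inhibitor, was at 27.4 to 44.2 and 13.4 to 34.0 TPM (adjusted p = 0.273). Pdk4, which holds back pyruvate oxidation, was at 206.2 to 314.9 and 185.8 to 263.0 TPM, and Ucp3, a mitochondrial carrier, at 29.996 to 48.1 and 22.4 to 27.0.

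**Figure D5:**
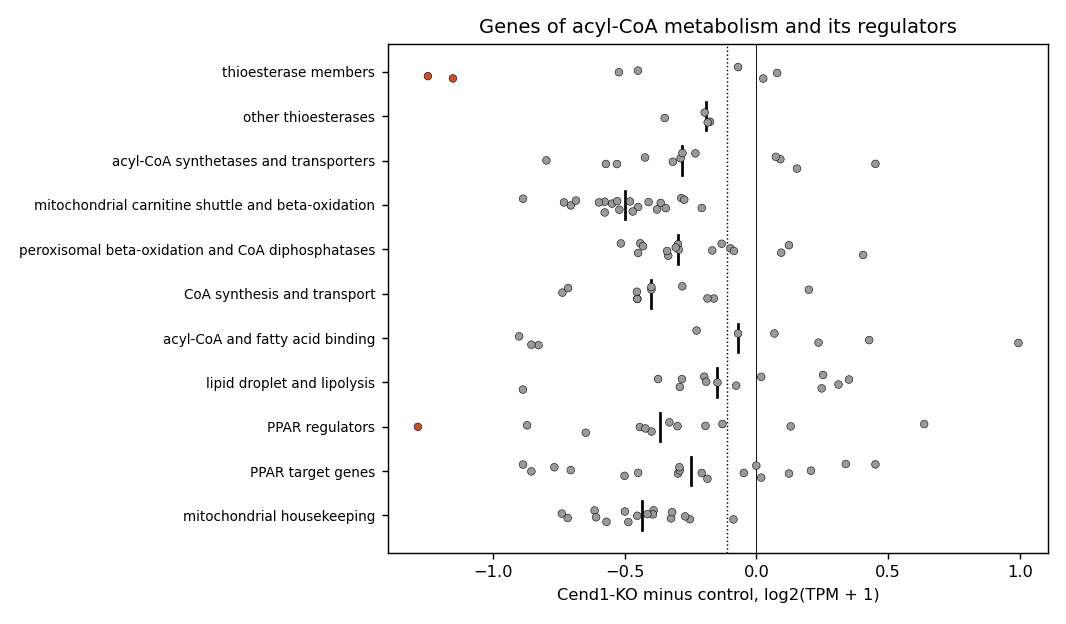
Difference, Cend1-KO minus control, log2(TPM + 1), of each tested gene in the thioesterase set and in 10 lists. The lists cover acyl-CoA metabolism, its regulators and, as a reference, mitochondrial housekeeping, and some share genes. Points are genes, and their vertical spread is only for sight. Coloured points are called by limma, black bars are list medians and the dotted line is the median of all tested genes at -0.11. Acot2, Acot1 and Ppargc1a are the called genes. Because this contrast chose the thioesterase set, nothing is read from the calls of Acot2 and Acot1. On the deposited values all 20 beta-oxidation genes lie below 0, where 8445 of all 13542 tested genes do.

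Over all these lists together, 121 genes other than the members were tested, 16 of them the mitochondrial housekeeping genes. Limma called 1 lower and 0 higher, against 0.908% and 0.790% of all tested genes. At an unadjusted limma p under 0.05, 30 were lower, 6 of them housekeeping genes, and 1 was higher. Over all tested genes 10.4% were lower and 674 of 13542 were higher at that p. The lists were chosen with earlier results of these data known, so nothing is read from these counts.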

How the data were processed

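The submitters' processing notes name the mm10 build, featureCounts 1.5.0-p3, HISAT2 2.0.5, fastp and CASAVA; the step from reads to expression is not given in the sources used here. All deposited values are the authors' TPM: they are not whole and sum to 1000000 per library. Depth is unknown, so no counting interval is given. Each column was assigned by the description of its sample, and libraries carry the replicate numbers of their titles, which differ from those of the columns: Cend1-KO replicates 3 and 4 are columns C1KO-2 and C1KO-3. GENCODE M21 (mm10) gave symbols for 52029 of 57010 identifiers, coordinates and transcripts.

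The design had allowed for counts; with TPM, limma 3.58.1 in R 4.3.3 was fitted to log2(TPM + 1) with a trend and a robust prior over 13542 genes that reached 1 TPM in 3 or more libraries, a fit checked on simulated data. Differences on this scale understate the change of low genes. Calls have a Benjamini-Hochberg adjusted p under 0.05. Named are the 9 members, Cend1, the other thioesterases and the 5 profiles nearest to Acot2, with Cript and Tecrl for Acot13. Up to 4 genes with the smallest p are named per list, apart from the housekeeping list. Reference genes of ratios, neighbours, overlapping genes, Xist, Ucp3 and Acadvl are named outside this rule. So are Adipoq, Retn, Cfd, Ucp1, Cox8b, Plin1 and Cidec. Members and lists were chosen with earlier results of these data known. Alternatives changed scaling, pseudocount, filter, prior, pairing and libraries. Same-numbered libraries deviated with correlations of -0.172, 0.0441 and -0.12. The labels do not say whether the numbers pair libraries, and these values cannot settle it.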

Additional observations from a re-analysis of the deposited data

How the results depend on the processing

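The 230 calls on the deposited values became 1396 with median-of-ratios scaling, 1405 with upper-quartile scaling, 999 with mitochondrial and hemoglobin genes removed, 116 with a filter at 5 TPM, 738 with the replicate number as a block and 1369 with median-of-ratios scaling when Cend1-KO replicate 3 was left out, which was chosen after seeing the data. With no filter limma called 0 of 30114, with 2894 at an unadjusted p under 0.05. Leaving out single libraries gave 76 to 825 calls. The share of calls that were higher went from 46.5% to 59.9% with median-of-ratios scaling and 72.8% with mitochondrial and hemoglobin genes removed. Pathway genes called lower went from 1 to 6, 6, 4, 0, 5 and 12 under median-of-ratios, upper-quartile, gene removal, no filter, replicate block and the scaling without Cend1-KO replicate 3, and to 0 to 14 without single libraries. Pathway genes called higher went from 0 to 2, 2, 2, 1 and 2 under the same settings apart from no filter. They went to 0 to 2 without single libraries. The pathway genes of these counts include the mitochondrial housekeeping list. Deviations of same-numbered libraries gave no sign of a pairing, which the labels leave unstated. The Acot2 difference stayed between -1.30 and -1.01 over 17 alternatives and was called in 14; that of Acot1 stayed between -1.29 and -0.93 and was called in 12, with no filter among the exceptions for both. All of these fits reuse the libraries that chose the set, so nothing is read from how often either call held. None of the other 5 tested members was called in any alternative, and Acot9, Acot11 and Acot13 took both signs. The cause of these shifts was not tested. Count models could not be run on TPM.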

Other observations

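Genes of lipid storage had differences of both signs. Of 13 tested lipid droplet and lipolysis genes limma called 0, with 1 lower at an unadjusted p under 0.05, and the median was -0.15. Cidea, a lipid droplet protein also known from brown fat, was at 60.9, 48.8 and 44.0 TPM in the controls and at 29.2, 22.0 and 30.6 in the knockout libraries (adjusted p = 0.0918; scaled by median-of-ratios, 0.0297). The groups did not overlap. Ucp1, which defines brown fat, did not exceed 1.22 TPM, and Cox8b, shared by heart and brown fat, was at 1938 to 2024 and 1589 to 2289 TPM. Lpl, the lipase of capillary walls, was at 337.9 to 388.2 and 432.8 to 525.0 TPM (adjusted p = 0.442), while Plin4 and Plin5, droplet coats, had adjusted p = 0.534 and 0.564. The other 2 genes of the list, Plin1 and Cidec, which also mark white fat, were too low to be tested: Plin1 was at 0.0166 to 0.311 TPM in controls and 0.347 to 0.775 in Cend1-KO, and Cidec at 0 to 0.152 and 0.455 to 1.94, both without overlap. They moved with the adipocyte markers Adipoq, Retn and Cfd, and the part of fat cells in this list was not tested.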
